A study of Citrus x aurantiifolia with 4 samples.

Results

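The 200 genes described here were the most abundant stably measured genes in leaf RNA of acid lime (Citrus x aurantiifolia), out of 81380 genes of a de novo transcript assembly. They were chosen by 3 conditions. The highest of the 4 library values of a gene had to lie under 1.5 times the lowest. Each library had to hold at least 50 reads of the gene, summed over its isoforms (the alternative transcripts assembled for one gene). The most-read isoform, called the main isoform below, had to be the same in every library. These conditions were met by 3908 genes, and the 200 with the highest mean value were kept. The values that chose them are described below, and no test of them supports anything, because the choice itself fixed how little they could differ. No gene names come with the assembly IDs used in the files, so members are called by ID, and their functions and sequences are not given. For the same reason neither leaf marker genes nor the transgene could be looked up.

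Leaves of wild-type plants (WT, 2 libraries) were compared with leaves of transgenic plants (TG, 2 libraries) that overexpress a trypsin inhibitor from Putranjiva roxburghii, a tree of another family. All plants were of the cultivar Pramalini, and the transgenic plants had tested positive by PCR. Age, promoter, growth conditions and the number of plants or transgenic lines behind a library are not given in the sources used here. Replicates may therefore be technical, in which case the tests gauge technical spread alone.

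Trypsin inhibitors block serine proteases of herbivores and pathogens, and plants make their own as part of their defence. Leaves are in general dominated by transcripts of photosynthesis, translation and basic metabolism. Transcripts whose level changes little between conditions are often used as internal references when other transcripts are measured. A constant gene total can still hide a change of isoforms, because splicing, the choice of transcript ends and allelic sequence can each alter which transcript of a gene is made or assembled.

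WT 1 and WT 2 had read totals of 13510174 and 17357251, and TG 1 and TG 2 had 17694544 and 16062327. Between 33393 and 35046 genes per library had a value of at least 1. Levels are given as TMM-scaled TPM, TPM (a share of all transcripts, corrected for transcript length) with a further scaling between libraries by the trimmed mean method, and they carry no read depth. Reads are RSEM expected counts. They were also put on the CPM scale, reads divided by the library total and by a composition factor, which was between 0.875 (TG 1) and 1.06 (WT 2).

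The members spanned a wide range of abundance. Their mean value over the 4 libraries ran from 123 to 7016 TMM-scaled TPM, with a median of 166 and quartiles of 138 and 245. The first 10 members held 30% of the summed level of all 200. Only 4 members had a mean of 1000 or more, out of 66 such genes in the assembly, and the other 196 were among the 1361 genes between 100 and 1000. The last member ranked 1068 among all genes by mean value. Of the genes at least as abundant, 754 met the conditions on reads and on the main isoform, and 200 of these were stable. The median ratio of highest to lowest value among the 754 was 1.94.

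**Figure D1:**
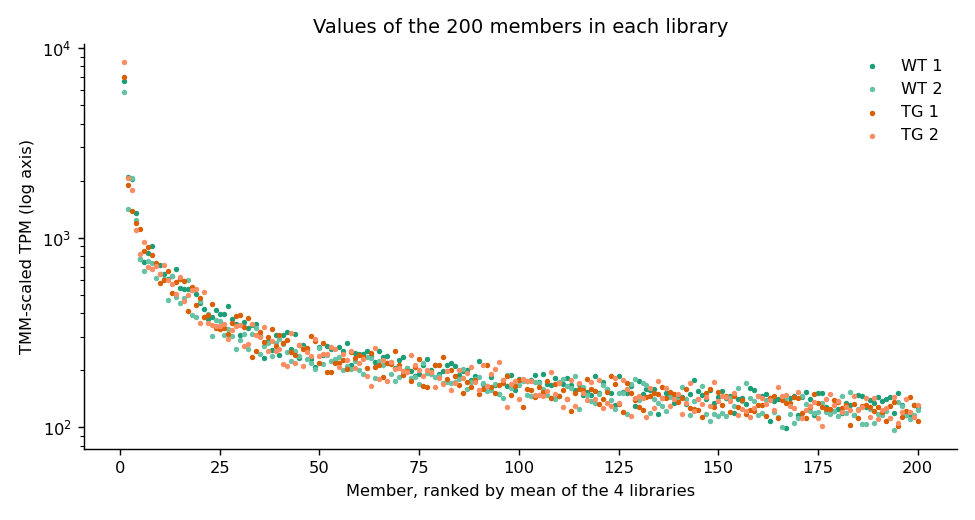
TMM-scaled TPM (log axis) of each of the 200 members in the 4 libraries, with members ranked by their mean; each point is 1 library. The level drops from 7016 for the first member to 1870 for the second and then flattens to 123, and the points of the 2 genotypes are interleaved along the whole range.

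Together the members made up 5.84% of the total level in WT 1, 5.43% in WT 2, 5.02% in TG 1 and 5.71% in TG 2. Their share of all reads was 4.87%, 4.40%, 4.22% and 4.76% in the same order. TG 1 had the lowest share on both scales, and the genotypes overlapped. In RNA of whole leaves, fewer cells of a type and less RNA per cell cannot be told apart, so these shares describe the tissue as sampled.

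The most abundant member was TRINITY_DN23713_c0_g4, assembled as a single isoform and the fourth most abundant gene of the assembly. Its TMM-scaled TPM was 6745 in WT 1, 5898 in WT 2, 7015 in TG 1 and 8407 in TG 2. Both TG values lay above both WT values, at 7711 ± 984 in TG and 6321 ± 599 in WT (SD, n = 2). The log2 difference was 0.28, in a gene whose values the rule had held within 1.5 times. Its standard error of 0.82 was moderated by limma toward genes of like level, and is not the spread of this gene alone. Its share of the total level was 0.687% and 0.623% in WT and 0.641% and 0.855% in TG.

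TRINITY_DN27642_c0_g1 came second. Its TMM-scaled TPM was 2083 in WT 1, 1420 in WT 2, 1902 in TG 1 and 2073 in TG 2. WT 2 stood below the other libraries, and the difference between the WT libraries was larger than that between the genotype means of 1751 ± 469 in WT and 1988 ± 121 in TG (SD, n = 2). The member with the most reads was TRINITY_DN28754_c4_g1, with 43487 and 42015 reads for WT and 57267 and 53180 for TG. Its TMM-scaled TPM was 527 and 389 in WT and 552 and 527 in TG, which placed it 18th in level. At the end of the range, TRINITY_DN27001_c1_g2 had 128 and 124 TMM-scaled TPM in WT and 108 and 132 in TG, from 60 to 107 reads per library.

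The ratio of highest to lowest value had a median of 1.32 over the members and quartiles of 1.23 and 1.4. A ratio under 1.1 was found for 4 members, under 1.2 for 33 and under 1.3 for 90. The highest ratios inside the limit were 1.496 and 1.497, and the nearest genes outside it, at the abundance of the members, had 1.5004 and 1.5032. Membership near the limit therefore turned on differences far below the replicate spread, since within a genotype the ratio of the 2 libraries had a median of 1.13 in WT and 1.13 in TG.

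The steadiest member was TRINITY_DN17370_c0_g2. Its TMM-scaled TPM was 200 in WT 1, 191 in WT 2, 196 in TG 1 and 195 in TG 2, a coefficient of variation of 1.96%. Next came TRINITY_DN27372_c0_g1, with 206 and 205 in WT and 197 and 195 in TG. The genotypes did not overlap in this member, but the log2 difference was only -0.07 (moderated standard error 0.18). Both members were as steady in CPM, where highest and lowest library differed by a factor of 1.06 in each.

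Across the members the coefficient of variation of the 4 values had a median of 12.1%, against 2.01% that counting error alone would give at their depth. The lowest read number of a member in a library was 53, the median over members of this lowest number was 2164, and 160 members had at least 1000 reads in every library. Counting error was thus small beside the observed spread for most members.

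The limma test of the gene values called 26.2% of 34378 genes between the genotypes at an adjusted p under 0.05. Of the 200 members it called 0, and 1 at an unadjusted p under 0.05. The rule used the same contrast, so nothing is read from this. The largest differences among the members were -0.47 and 0.50 on the log2 scale, and the median absolute difference was 0.17, against 0.64 over all genes tested. The standard error had a median of 0.21 and was never below 0.164. It is the moderated one of limma, drawn toward the spread of genes of like level, so it does not give each member's own spread.

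No overlap between the genotypes was found in 85 members. Both TG values lay above both WT values in 34 members (17%) and below them in 51 (25.5%), against 32.5% and 33.7% of all genes tested. This share too was bounded by the rule. WT 1 was the highest library in 79 members and WT 2 the lowest in 79. The deviations ran between the WT libraries as much as between genotypes, with the median member 0.09 above its own mean in WT 1 and 0.08 below it in WT 2 (log2 value).

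Reads gave a second view of the same libraries. The highest and lowest CPM of a member differed by less than 1.5 times in 155 members (77.5%), against 34.3% of the 15827 genes that passed the read minimum. The share is a description, since values and reads come from the same libraries. Another 36 members lay between 1.5 and 2 times, and 9 at 2 times or more. In these, the value was steady while the summed reads of the listed isoforms were not. Where isoforms of a member were missing or not settled, as counted below, those reads may be incomplete.

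**Figure D2:**
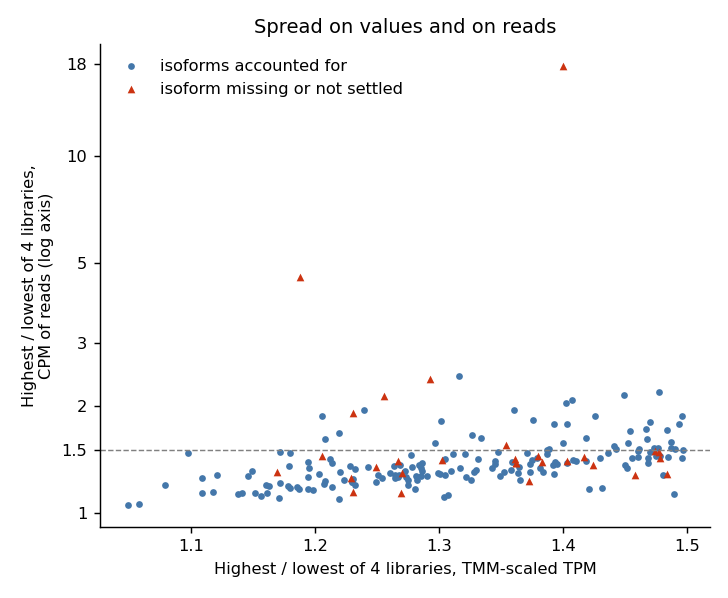
Ratio of the highest to the lowest of the 4 libraries for each member, on TMM-scaled TPM (x axis, limited to 1.5 by the rule) and on CPM (y axis, log axis, dashed line at 1.5). Blue circles are members whose isoforms accounted for the gene value and red triangles are members with an isoform missing or not settled; 155 members lie under the line, and the point at 17.8 is TRINITY_DN20229_c0_g1.

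TRINITY_DN20229_c0_g1 had the widest gap between values and reads. Its TMM-scaled TPM was 168 and 180 for WT and 158 and 129 for TG. Its reads were 1449 and 2071 in WT but 98 and 119 in TG. The main isoform of this member in the isoform table fell from 1439 and 2039 reads to 90 and 109, a log2 change of -4.07 by edgeR (adjusted p = 0.00345). The isoforms listed for it explained 37.9% of the gene value in WT 1, 38.3% in WT 2, 2.80% in TG 1 and 3.77% in TG 2. The rest lay on transcripts outside the isoform tables used here. Its steady total was therefore not carried by the isoform that met the rule, and whether its main isoform was the same in both genotypes cannot be told.

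How many members shared this limit was counted, because the isoform tables used here end inside a row and hold 97.6% to 97.9% of the reads. The listed isoforms accounted for the gene value in 171 members, in 119 of them directly to at least 99% in every library. In the other 52 the remainder was fitted by the reads of isoforms without a value of their own, within 2% of the gene value. This was a loose check, because members with less than 2% left over passed it almost whatever the reads were. In 9 members an isoform was missing, and the listed ones explained between 2.80% and 98.8% of the value in the library where they explained least. The remaining 20 members could not be settled. Among the 171, CPM values were within 1.5 times in 132.

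By effective length, most members were shorter than the median gene that met the conditions on reads and main isoform. Reads per unit of TPM give an effective length, the number of positions at which a fragment can start, relative to the other genes. It could be had for the main isoform of 178 members and of 9951 of the 11345 genes that met the conditions on reads and main isoform. With the median of these genes set to 1, the members had a median of 0.53 and quartiles of 0.31 and 0.82, and 149 of the 178 were below 1. Values under 0.25 were found in 36 members (20.2%), against 6.99% of all the genes. At a given number of reads, a shorter transcript has the higher TPM. The rule ranked genes by TPM and so favoured short ones, and the comparison genes were not matched for level. No trait of the members is read from this difference.

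The 2 ends of this range show what the scale does. TRINITY_DN23713_c0_g4 had a relative effective length of 0.0148, so that 2586 reads in WT 1 made up a level of 6745 TMM-scaled TPM. TRINITY_DN28754_c4_g1 had a relative effective length of 3.55, and its 43487 reads in the same library made up 527. The order of members by level thus differed from their order by reads.

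For short members TG 1 was scaled unlike the other libraries. In the 36 members under 0.25, the effective length in TG 1 was a median of 0.713 times that in WT 1, whereas it was 0.977 times in WT 2 and 0.982 times in TG 2. Their CPM in TG 1 was a median of 0.787 times that in WT 1, and their values 1.04 times. In the 142 members of 0.25 or more these medians were 0.966 for length, 0.984 for reads and 0.937 for values. TG 1 was the lowest library by CPM in 27 of the 36 short members and in 35 of the 142 others, and 19 of the 36 and 116 of the 142 were within 1.5 times on reads. The part of this length scaling in the steadiness of short members was not tested.

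For the most abundant member, these 2 scales ran apart in 1 library. TRINITY_DN23713_c0_g4 had 2586, 2824, 1805 and 3582 reads in WT 1, WT 2, TG 1 and TG 2, which is 182, 153, 117 and 218 CPM. TG 1 was the lowest library by reads and the second highest by value. Its relative effective length was 0.00895 in TG 1 and between 0.0146 and 0.0157 in the other libraries.

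Most members were assembled as several isoforms. The number ranged from 1 to 20 with a median of 4, and 16 members (8%) had a single isoform, against 15.3% of the 11345 genes. The main isoform held a median of 84.8% of the reads in the 184 members with several isoforms, against 80.8% in the 9608 such genes overall. It held at least 50% in every library in 167 of them and at least 90% in 71. So the typical member was 1 dominant transcript with a set of minor ones.

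Below the constant totals, isoform makeup differed between the genotypes. The share of the main isoform moved by at least 5 percentage points in 85 of the 184 members (46.2%), against 57.3% of the 9608 genes with several isoforms that met the conditions on reads and main isoform. It moved by at least 10 points in 56 members (30.4%, against 37.2%) and by at least 20 in 20 (10.9%, against 15.4%). The median absolute difference between genotype means was 4.30 points in the members and 6.48 in the 9608 genes, so the shifts of the members were the smaller ones, without a test of that difference. Between the libraries of a genotype it was 0.926 points in WT and 1.495 points in TG, so genotypes differed more than replicates. Both TG shares lay above both WT shares in 66 members (35.9%) and below them in 65 (35.3%), where the same was found for 34.1% and 33.5% of the 9608 genes. By the count of members without overlap, they were close to the background in both directions. All these counts include members whose isoforms were not accounted for, and their shares may be of part of the gene's reads. TRINITY_DN26847_c0_g2 and TRINITY_DN25713_c0_g1 were such members, both with a move of at least 20 points. For TRINITY_DN25713_c0_g1 the listed isoforms explained 36.8% and 39.8% of the value in WT, against 64.1% and 59.0% in TG. The counts were not repeated without such members.

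**Figure D3:**
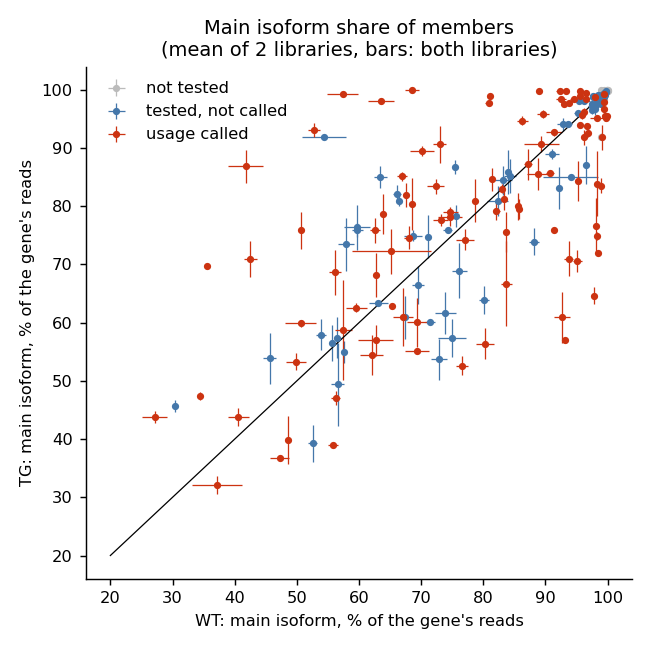
Percentage of a gene's reads that fall on its main isoform, WT against TG, for the 184 members with several isoforms; points are means of 2 libraries, bars reach both libraries, the line marks equal shares, and red points passed the isoform usage test. Members with a change of 20 points or more (20 of them) lie far from the line on both sides. Members whose isoforms were not accounted for are included.

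The usage test (edgeR diffSpliceDGE, Simes p per gene, adjusted p under 0.05) called 56% of the 16609 genes for which 2 or more isoforms were tested. It called 100 of the 167 members it covered (59.9%), a share near that background and near the 53.2% of the 8422 genes covered that met the conditions on reads and main isoform. Calls also rose with depth in those genes, from 41.4% of those with 200 to 1000 reads over the 4 libraries to 62.3% of those with 16000 or more. Among members of 4000 to 16000 reads, 59 of 98 were called, against 61.7% of the genes of that depth. So the members' share was near that of genes of like depth. With members whose isoforms were accounted for, 85 of 145 were called.

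By isoform, the edgeR test called 45.4% of 71940 isoforms. Of the 656 tested isoforms of members it called 227 (34.6%), 121 higher and 106 lower in TG. Main isoforms were called in 9 cases higher and 5 lower, or 7% of 200, against 16.7% of the main isoforms of the 11345 genes. The rule held these back, because a main isoform that carries most of a constant total cannot move far. The other isoforms were called in 112 cases higher and 101 lower, or 46.7% of 456, against 43.4% of such isoforms in the 11345 genes. Minor isoforms of members were thus near the background in their share of calls. Without WT 1 the 227 calls became 125, and without WT 2 they became 126, while the share over all isoforms fell from 45.4% to 21.2% and 20%.

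**Figure D4:**
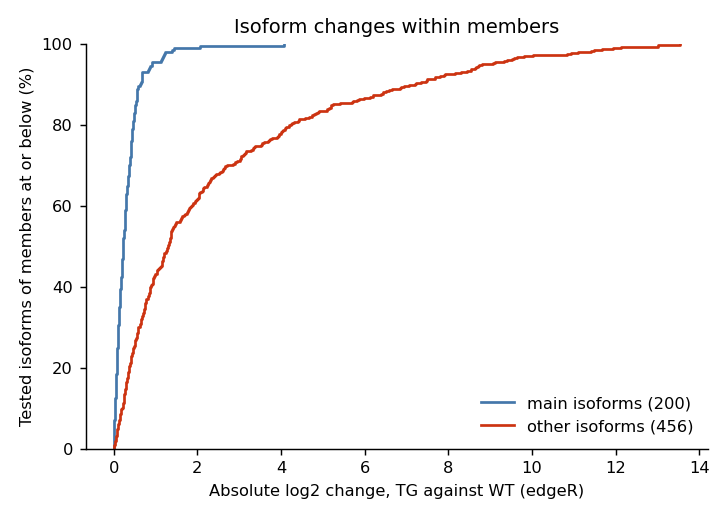
Cumulative percentage of the tested isoforms of members by absolute log2 change between TG and WT (edgeR), for the 200 main isoforms and the 456 other isoforms. The median is 0.23 for main isoforms and 1.3 for the others, and the curve of the others reaches 13.5.

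The sizes differed as well. The median absolute log2 change was 0.23 in main isoforms and 1.3 in the other isoforms of members, and 1.48 over all isoforms tested. In the 11345 genes it was 0.44 in main isoforms and 1.56 in the others, so main isoforms changed less there too. Changes of at least 8-fold were called in 127 of the other isoforms of members (27.9% of 456), against 28.9% of the 21905 such isoforms in the 11345 genes. They were called in 1 main isoform, that of TRINITY_DN20229_c0_g1 described above. Called isoforms were present in 118 members (59%), against 61.4% of the 28317 genes with a tested isoform. In 43 members they pointed both ways, or 25.7% of the 167 with several tested isoforms, against 28.1% of all such genes. They were only higher in 40 members (20%, against 22%) and only lower in 35 (17.5%, against 22.8%). Of the 11345 genes, 54.7% had a called isoform, 21.2% only higher and 18.3% only lower ones. None of the members' shares stood far from these backgrounds.

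Some isoforms of members were read in 1 genotype only. At least 10 reads in both libraries of WT and 0 in both of TG were found for 17 isoforms of members (2.57% of 662 isoforms with 10 reads in at least 2 libraries), against 7.05% of 72214 isoforms. For TG the number was 24 (3.63%), against 8.15%. Main isoforms cannot be among them by the rule, which lowers these shares. Over the 462 isoforms of members other than the main one the shares were 3.68% for WT and 5.19% for TG, against 6.1% and 7.49% of the 22040 such isoforms in the 11345 genes. This difference was not tested. These isoforms belonged to 35 members, 2 of which held both kinds. They were mostly minor, with a median of 40 reads per WT library and 49.5 per TG library, but the largest made up 23.6% of its gene's reads in a WT library and 37.5% in a TG library. For each library, a count of 0 leaves room for up to 3 reads.

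TRINITY_DN18224_c0_g1 was the member with a usage call whose main isoform share rose most. Its gene value was 146 and 143 TMM-scaled TPM in WT and 120 and 137 in TG. The main isoform, i6, took 44.6% (WT 1) and 39.0% (WT 2) of the reads in WT, against 89.7% (TG 1) and 84.1% (TG 2) in TG. Groups were far apart relative to their libraries, and the usage test gave an adjusted p of 1.32e-05 (edgeR diffSpliceDGE). By reads, i6 rose from 869 and 975 to 1874 and 2050 (edgeR log2 change 1.12, adjusted p = 0.0157). Isoform i7 had 409 and 591 reads in WT and none in TG (edgeR adjusted p = 0.00345). Isoform i1 fell from 651 and 913 reads to 202 and 362 (edgeR log2 change -1.43, adjusted p = 0.019). The gain of 1 isoform was thus set against the loss of 2 others, at a total that the rule had held within 1.5 times. On TMM-scaled TPM, i1 was the most abundant isoform in WT (74.2 and 79.9, against 51.6 and 44.2 for i6). In TG it was i6 (97.0 and 102, against 21.8 and 34.6 for i1). So i6 led in every library by reads, but only in TG by TPM. The calls of i6 and i1 were lost without either WT library (adjusted p up to 0.174 and 0.0954 over the alternatives), while i7 and the usage call were kept in each alternative run.

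TRINITY_DN14472_c0_g2 was the member whose main isoform share fell most among those with a usage call. Its gene value was 190 and 179 TMM-scaled TPM in WT and 167 and 200 in TG, and the groups overlapped. Its main isoform, i1, took 93.3% and 92.8% of reads in WT but 56.9% and 57.2% in TG (edgeR diffSpliceDGE adjusted p = 2.37e-05). Isoform i2 had 19 and 22 reads in WT and 365 and 370 in TG, a log2 change of 4.19 (edgeR adjusted p = 0.00345). Isoform i3 rose from 89 and 119 reads to 238 and 419 (edgeR log2 change 1.70, adjusted p = 0.0135). Here 2 minor isoforms took the place that the main one gave up. The main isoform itself, with 1507 and 1837 reads in WT and 796 and 1053 in TG, was close to the threshold (edgeR log2 change -0.82, adjusted p = 0.046), and lost its call in 6 of 8 alternatives. The call of i3 was lost without either WT library (adjusted p up to 0.0939).

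**Figure D5:**
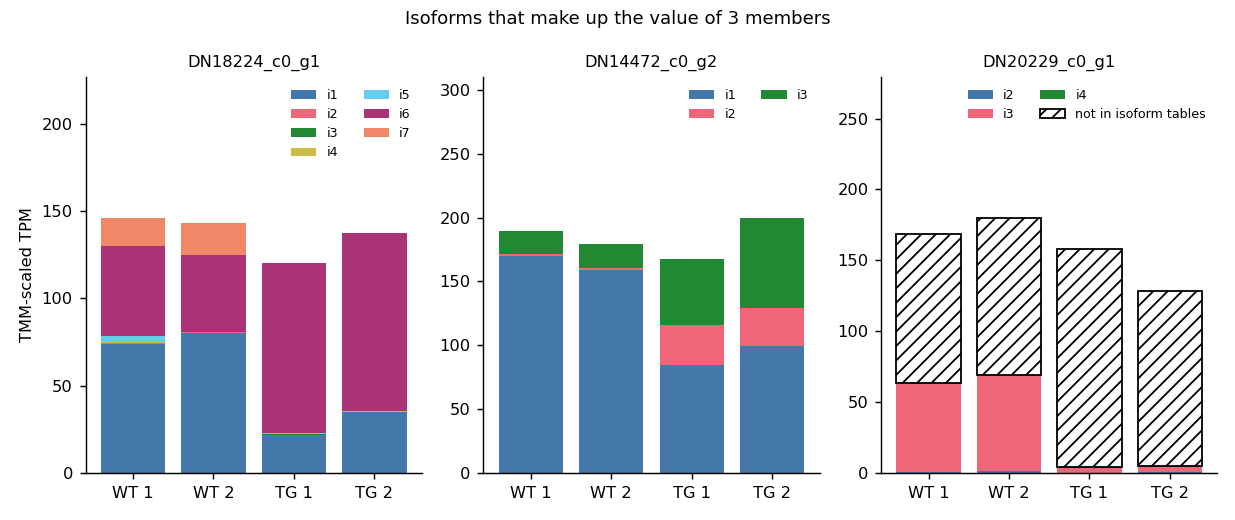
TMM-scaled TPM of each isoform (stacked, brought to the scale of the gene table) in the 4 libraries for 3 members; the height of a bar is the gene value and hatching is the part on transcripts outside the isoform tables. Totals of a member stay within 1.5 times by the rule, with both TG totals below both WT totals in TRINITY_DN18224_c0_g1 and TRINITY_DN20229_c0_g1. In TG, i6 of TRINITY_DN18224_c0_g1 widens and i1 of TRINITY_DN14472_c0_g2 narrows, and the listed isoforms of TRINITY_DN20229_c0_g1 nearly vanish.

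Among the 20 most abundant members, the main isoform share moved by at least 10 points in 6 and by less than 5 in 11. The 6 include TRINITY_DN24754_c0_g1, TRINITY_DN26847_c0_g2 and TRINITY_DN29066_c3_g2, whose isoforms were not accounted for. Their shares may be of part of the gene's reads. For TRINITY_DN26847_c0_g2 the listed isoforms explained 63.7% and 68.4% of the value in WT, against 99.4% and 99.9% in TG. TRINITY_DN27642_c0_g1 was among the members whose share moved by less than 5 points. It had 17 isoforms with at least 10 reads in a library, the most of any member. Its main isoform took 90.1% and 92.7% of reads in WT, against 93.4% and 92.0% in TG, and the usage test called the gene (edgeR diffSpliceDGE adjusted p = 9.05e-05). Which isoforms drove this call was not tested. By reads, the main isoform, i6, was not called (edgeR log2 change 0.36, adjusted p = 0.482). Isoform i4 had 1145 and 718 reads in WT and 0 and 4 in TG (edgeR adjusted p = 0.00453), and i9 had 18 and 0 reads in WT and 520 and 981 in TG (edgeR adjusted p = 0.0119). They held at most 3.24% and 2.09% of the gene's reads.

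Even the steadiest total was mixed in this way. The main isoform of TRINITY_DN17370_c0_g2 took 73.5% and 75.9% of reads in WT, against 79.8% and 78.4% in TG (edgeR diffSpliceDGE adjusted p = 1.31e-05). Its isoform i6 had no reads in WT and 43 and 49 in TG, which is 1.23% and 1.34% of the gene's reads. TRINITY_DN28754_c4_g1 had a main share of 96.6% and 96.5% in WT and 98.7% and 98.1% in TG, with a usage call just inside the threshold (edgeR diffSpliceDGE adjusted p = 0.0477) that was lost without either WT library and without TG 1 (adjusted p up to 0.264). For TRINITY_DN27001_c1_g2, whose main share was 91.4% and 94.0% in WT and 56.5% and 65.3% in TG, few reads stood behind the shares. Its usage call (edgeR diffSpliceDGE adjusted p = 0.0199) was lost in 6 of 7 alternatives.

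Genes that lay beside members in the assembly were left out of the set by the same rule. They had failed a condition or had a lower mean value. Their limma calls are therefore a description, and the comparison genes below include members. A component of the assembly joins genes that share sequence, and such genes may also share reads. Members came from 195 components, and 5 pairs of members shared one. For 113 members, 191 other genes of the same component were tested by limma. Of these 20 were higher and 27 lower in TG, or 24.6%, against 26.4% of the 17690 genes that share a component with another tested gene. By read cluster, the wider grouping of the assembly, 145 members had 301 other tested genes, of which 51 were higher and 40 lower (30.2%, against 27% of 23375 genes). Both shares were near the background, and by component the median absolute log2 difference was 0.67 in both sets. Calls fell to 11 (3.81%) when low values were not filtered out, when the share over all genes tested was 2.43%. Omitting WT 1 left 9 calls (5.20%, against 3.11% over all genes), WT 2 left 7 (3.98%, against 2.12%), TG 1 left 13 (7.39%, against 6.60%) and TG 2 left 16 (9.14%, against 7.73%).

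The most abundant member had such a neighbour. TRINITY_DN23713_c0_g3, named after its values were seen, had 633 and 477 TMM-scaled TPM for WT and 9737 and 9552 for TG. Its value rose by 4.13 on the log2 scale (moderated standard error 0.47, limma adjusted p = 0.013). Its reads were 3766 and 3645 in WT and 4456 and 7142 in TG, so they differed far less than its values. The call was lost without the filter on low values and without either WT library (adjusted p up to 0.132). Whether the listed isoforms account for the gene value was checked for members only, so the reads of TRINITY_DN23713_c0_g3 may be incomplete. The cause of the gap between its reads and its values was not tested. Reads may also be divided between these 2 genes, and how they were split was not tested.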

How the data were processed

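The members, lists and tests were chosen with earlier results of these data known. Per the submitters' processing notes, the authors used Bowtie2, RSEM and DESeq2; versions, strand use and assembly settings are not given in the sources used here. Per the file headers, the deposited isoform table holds RSEM estimated counts (expected counts). The deposited gene and isoform value tables hold signal read as TPM times a TMM factor, and a further gene table holds that signal scaled to the read total, from which library totals were taken. Of the 4 tables, 3 end inside a row, which was left out.

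For gene values, limma 3.58.1 (trend option, R 4.3.3) was run on log2(value + 1) after removing genes below 1 in 3 or more libraries; fold changes on this scale understate those of low genes. Expected counts were rounded and tested with edgeR 4.0.16 (quasi-likelihood, TMM factors, filterByExpr at a minimum count of 10) and diffSpliceDGE. All p-values are two-sided, Benjamini-Hochberg adjusted over all features, and called under 0.05. Intervals and floors from counts cover counting error only. The tests were checked on simulated data. An exact permutation test of 2 against 2 libraries cannot go below p = 0.333 and was not used. Named members were set by rank (level, steadiness, isoform number, reads, main isoform share among usage calls, spread of reads). DESeq2 1.42.0 served as an alternative.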

Additional observations from a re-analysis of the deposited data

How the results depend on the processing

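Members with isoforms accounted for and the component neighbours were looked at after seeing the data. Over 270 values under alternatives, 234 made the same call or gave a count within 1.5 times. Another 12 were counts that moved further, 24 calls of single isoforms or genes were lost, and none reversed. Gene-level calls among members stayed at 0 in every limma alternative, as the rule makes likely. Membership was sensitive to its limits: 90 of the 200 members had a ratio under 1.3, and 86 stayed among the 200 most abundant when the limit was 2. With a library left out, 115 to 168 members stayed, with the fewest without TG 2 (115) and TG 1 (129). Without the TMM factor 167 stayed. On reads, 72 members were within 1.3 times; with a library left out 163 to 182 were within 1.5 times, and 120 without the composition factor. Isoform calls in members ranged from 125 to 186 and usage calls from 79 to 94 with a library left out, where the lone library is assumed to vary like the other genotype. Component neighbours called were 11 without the filter and 7 to 16 with a library left out. The cause was not tested. DESeq2 called 207 isoforms of members. The replicate block gave 0 gene, 164 isoform, 93 usage and 50 neighbour calls; with 2 pairs and no word in the labels on what a replicate number stands for, it was not used as the design (r = 0.105 between deviations of libraries with the same number, across genes).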
